A study of Saccharomyces cerevisiae with 6 samples.

Results

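The region described here is the final part of the 25S coding region, the 3′-most of 3 parts of equal length into which the gene of mature large-subunit rRNA was divided. It was chosen by position alone, as positions 5516 to 6647 of the 35S gene, which holds 1132 of the 6858 positions measured (16.51%) and nucleotides 2265 to 3396 of mature 25S. Positions are counted along the transcript from the first position of the table. In the R64 genome the region lies in the 25S gene RDN25-2, on the minus strand at chrXII:460923-462054, and all of it is exonic rRNA sequence. The bases of the table equal the minus strand of chromosome XII at 6858 of 6858 positions, and a second full copy of the gene, RDN25-1, is annotated at chrXII:451786-455181.

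The occupancy of Pol I was measured by NET-seq in 3 biological replicates of a wild-type (WT) strain and 3 of a strain lacking SPT4 (*spt4△*), grown in the same way to early log phase. In NET-seq, RNA is isolated with the polymerase that is making it, and the 3′ end of each RNA marks the last nucleotide incorporated. Both strains share *ade2*, *ura3*, *trp1*, *leu2*, *his3* and *can1* marker alleles and an HA and His tag on Rpa135, the second largest subunit of Pol I, through which the polymerase was pulled down. The tag is marked with TRP1 in WT and with URA3 in *spt4△*, and SPT4 is replaced with HIS3 in *spt4△*. The WT strain also has its chromosomal *RPA190*, the gene of the largest Pol I subunit, replaced with HIS3 and carries *RPA190* on the plasmid pRS315, so strain differences other than *SPT4* cannot be told apart from its loss.

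Spt4 is a small zinc-binding protein that pairs with Spt5. The Spt4/5 complex is conserved from archaea to humans, where it is known as DSIF, and it rides on elongating polymerases near the clamp and the RNA exit channel. Pol I transcribes the 35S precursor in one pass through 18S, 5.8S and 25S, so a polymerase that reaches this end of 25S has already made most of the transcript. This stretch of 25S encodes the core of the peptidyl transferase centre, which joins amino acids, and the sarcin-ricin loop, which contacts the translation factors of the GTPase family. It ends at the mature 3′ end of 25S, where the ETS2 spacer begins.

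The sequences on which the results turn are printed here because each differed between strains or marks a boundary. Those around single positions run 5′ to 3′ as RNA, with 20 bases before the last incorporated nucleotide, which is in capitals, and 15 bases after it. Position 6399 was the highest of the region in both strains, 6318 was the next highest in WT outside the 3′ end, 5655 was among the 5 highest in *spt4△*, and 5941, 6123 and 6168 had some of the largest decreases. All are on the minus strand of chromosome XII, at 461156-461191, 461237-461272, 461900-461935, 461614-461649, 461432-461467 and 461387-461422.
6399: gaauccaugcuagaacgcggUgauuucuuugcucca
6318: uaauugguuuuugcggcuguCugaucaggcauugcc
5655: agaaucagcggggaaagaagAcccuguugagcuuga
5941: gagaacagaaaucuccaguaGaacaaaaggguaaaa
6123: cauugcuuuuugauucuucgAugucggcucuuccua
6168: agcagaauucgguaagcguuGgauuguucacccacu

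The 3′ end is shown with the last 30 bases of 25S and the first 20 of ETS2, from chrXII:460903-460952 on the minus strand, and its capitals mark the last 10 bases of 25S. The 2 conserved segments are shown with 15 bases on each side of their motifs, which are in capitals. They lie at chrXII:461483-461519 and chrXII:461272-461308 on the minus strand.
3′ end: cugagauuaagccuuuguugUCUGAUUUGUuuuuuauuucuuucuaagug
peptidyl transferase centre: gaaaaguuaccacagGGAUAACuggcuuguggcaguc
sarcin-ricin loop: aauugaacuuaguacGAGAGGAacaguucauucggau

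The WT libraries were far deeper than the *spt4△* libraries, with 5544361 to 10022839 reads against 307249 to 482133 up to T1, the terminator at position 6739. The region itself held 1274991 to 2340455 reads per WT library and 68908 to 113682 per *spt4△* library, and its median position held 795 to 1414 reads in WT and 43 to 65 in *spt4△*. A level of 3 reads corresponds to 0.299 to 0.541 rpm (reads per 1000000 reads up to T1) in WT and to 6.22 to 9.76 rpm in *spt4△*, so a low position is known less precisely in *spt4△*. Depth separates the strains completely and cannot be told apart from strain in these libraries. Over the 1132 positions, Spearman's rho was 0.977 to 0.983 between WT libraries, 0.935 to 0.943 between *spt4△* libraries and 0.758 to 0.838 between strains, as a description over neighbouring positions that are not independent. The values are shares of each library's own total, so more reads elsewhere in the gene lower every value here, and the number of polymerases per gene is not known.

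Counted over all positions, the region held the same share of reads in both strains to within the spread between replicates. Of all reads, WT replicates 1 to 3 had 23.35%, 23.00% and 22.23% there, and the 3 of *spt4△* had 23.58%, 22.85% and 22.43%. The strains overlapped, with means of 22.86% ± 0.575 in WT and 22.95% ± 0.582 in *spt4△* (SD, n = 3 each, exact permutation p = 0.8, two-sided). With 3 libraries against 3, 0.1 is the smallest p that this test can give, so none of the values per library below could pass 0.05.

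A single position hid a decrease over the rest of the region. Position 6399, nucleotide 3148 of 25S, held 0.665%, 0.605% and 0.480% of all reads in WT and 4.31%, 3.81% and 3.39% in *spt4△*. Of the reads of the region alone, it held 2.55% ± 0.353 in WT and 16.7% ± 1.60 in *spt4△*. All *spt4△* libraries lay above all WT libraries at this position, the difference being larger than the spread between replicates. The last 10 positions, which hold the 3′ end of the mature rRNA, moved the other way, from 4.96% ± 0.604 of the reads of the region in WT to 3.17% ± 0.146 in *spt4△*, again without overlap (exact permutation p = 0.1).

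Without position 6399, the share of reads in the region was 22.41% ± 0.505 in WT and 19.88% ± 0.224 in *spt4△*. Without the last 10 positions it was 21.97% ± 0.483 and 22.39% ± 0.547, and the strains overlapped (exact permutation p = 0.5). Without both, the WT libraries were at 21.80%, 21.69% and 21.04% and the *spt4△* libraries at 19.47%, 19.20% and 19.13%. The 3 *spt4△* libraries were then all below the 3 WT libraries, at a log2 ratio of -0.16 (means 21.51% ± 0.411 and 19.27% ± 0.179, exact permutation p = 0.1). The median position of the region changed less, with 142.5 ± 1.22 rpm for WT and 137.9 ± 2.73 rpm for *spt4△*, a log2 ratio of -0.05 (no overlap, exact permutation p = 0.1).

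**Figure D1:**
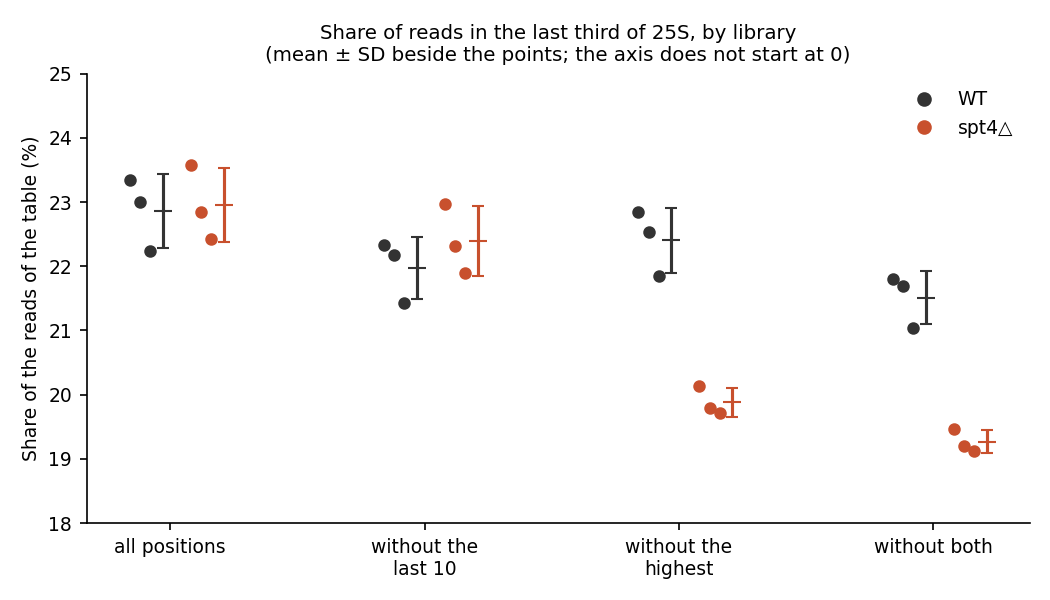
Share of the reads of the table that fell in the final 1132 positions of 25S (vertical axis, percent, not starting at 0) in each of 3 WT (dark) and 3 *spt4△* (orange) libraries, with the mean ± SD beside the points, over all positions and with positions left out. The strains overlap over all positions (22.86% and 22.95%) and separate once position 6399 is left out (22.41% and 19.88%).

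The earlier parts of 25S also held smaller shares in *spt4△*. Of the reads without position 6399 and the last 10 positions, the first 1132 positions of 25S held 18.38% ± 0.260 in WT and 17.22% ± 0.212 in *spt4△*, and the middle 1132 held 20.93% ± 0.126 and 19.40% ± 0.247, both without overlap (exact permutation p = 0.1 each). Relative to the other 2264 positions of 25S, the region without 6399 and the last 10 positions was lower in *spt4△*, with log2 ratios of -0.87 ± 0.028 in WT and -0.93 ± 0.012 in *spt4△* and a difference of -0.06. The libraries did not overlap (exact permutation p = 0.1), and the log2 ratios of the shares, all of the same reads, were -0.09 for the first part, -0.11 for the middle part and -0.16 for the region. With all positions counted, the same log2 ratio was -0.76 ± 0.036 in WT and -0.61 ± 0.039 in *spt4△*, so the direction turned with position 6399.

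Within the region, reads shifted slightly toward its 5′ side in *spt4△* once those positions were left out. The log2 ratio of reads in the 566 positions from 6082 on to reads in the 566 positions before came to -0.07, -0.15 and -0.15 for WT and to -0.23, -0.22 and -0.19 for *spt4△*. All *spt4△* values lay below all WT values, with a difference of -0.09 (exact permutation p = 0.1). With all positions counted, the difference was +0.30 in the other direction, since 6399 lies on the 3′ side.

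Position by position, decreases outnumbered increases. Of 1131 positions tested with limma on log2(rpm + 1), 204 (18%) were higher and 336 (29.7%) lower in *spt4△* at a Benjamini-Hochberg adjusted p under 0.05. Over all 6848 positions tested in the gene, 25.2% were higher and 21% lower. The region thus had fewer increases and more decreases than the gene as a whole. The first part of 25S had 220 higher and 273 lower and the middle part 241 and 256, each of 1132.

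The median log2 change was -0.08 over the region and 0.08 over the gene, and was 0.65 among the positions called higher and -0.80 among those called lower. The edgeR quasi-likelihood test on the reads recovered from the rpm values called 217 positions of the region higher and 346 lower, against 27.1% and 21.1% over the gene, and 535 positions were called in the same direction by both tools and 0 in opposite directions. At 263 positions all *spt4△* libraries were above all WT libraries and at 387 below, against 30.7% and 25.9% over the gene. When each library was scaled to its median position instead of its total, 142 were higher and 401 lower, and the median change over the gene moved from 0.08 to -0.05. Decreases outnumbered increases in the region under both scalings. Scaling to the median position shifts the changes downward over the whole gene, and the shares called over the gene were not counted under it.

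**Figure D2:**
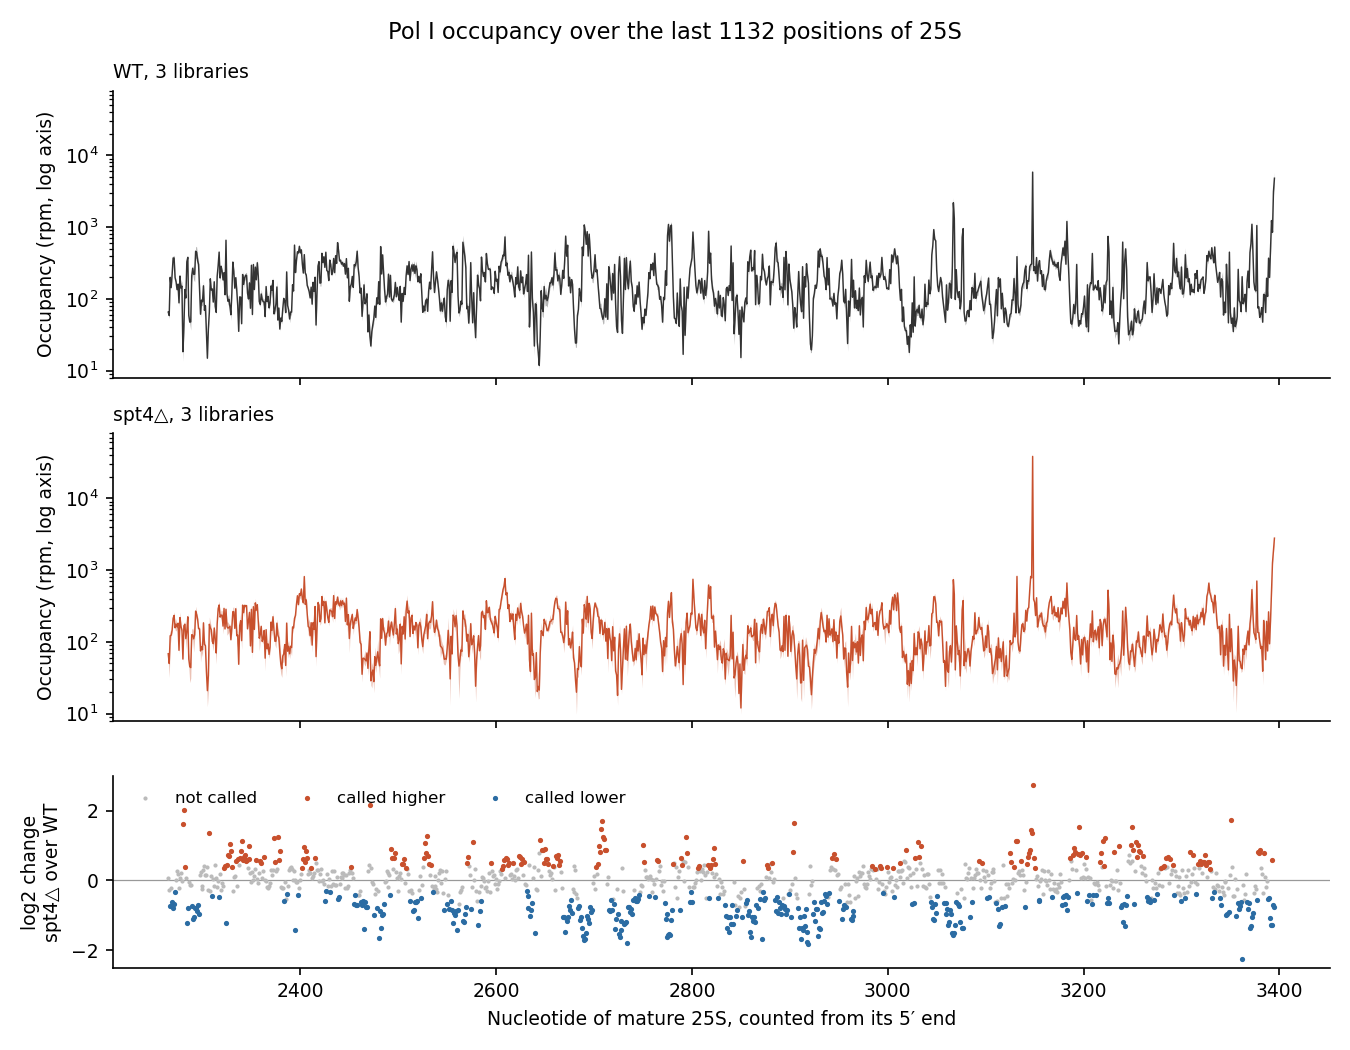
Occupancy in rpm (log axes) along nucleotides 2265 to 3396 of 25S in WT and *spt4△* (line, mean of 3 libraries; shading, lowest to highest library), and the log2 change at each position with positions called higher (orange) or lower (blue) by limma. Position 6399, at nucleotide 3148, stands out in both strains, with means of 5830 (WT) and 38379.9 rpm (*spt4△*), and 336 positions are called lower against 204 higher.

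In bins of 100 positions, the ratio of *spt4△* to WT varied along the region. Of 12 bins, 7 were lower in all *spt4△* libraries than in any WT library, 1 was higher and 4 overlapped. The 3 adjacent bins from position 5916 to 6215 (nucleotides 2665 to 2964 of 25S, chrXII:461355-461654) had the lowest ratios apart from the short last bin. Of the reads without 6399 and the last 10 positions, these 300 positions held 6.21%, 6.24% and 5.94% in WT and 4.31%, 4.40% and 4.44% in *spt4△*, a log2 ratio of -0.48. The stretch was chosen after its values were seen and is given as a description. Within it, 37 positions were higher and 148 lower, while the other 831 tested positions of the region had 167 higher and 188 lower.

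The rest of the region, without this stretch, 6399 and the last 10 positions, held 15.38% ± 0.253 of those reads in WT and 14.89% ± 0.246 in *spt4△*. The strains overlapped there (exact permutation p = 0.2). Leaving out the bins with low ratios moves the rest toward no change by construction, so no conclusion is drawn from these values. The single bin that was higher in *spt4△* ran from 6316 to 6415 and held 6399. It took 2.43% ± 0.223 of reads in WT and 5.48% ± 0.498 in *spt4△*, a log2 ratio of 1.18 that became -0.17 without 6399. The bin from 5816 to 5915, just before the low stretch, had 30 positions higher and 15 lower, and its shares overlapped between strains (1.92% ± 0.060 and 2.01% ± 0.085).

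**Figure D3:**
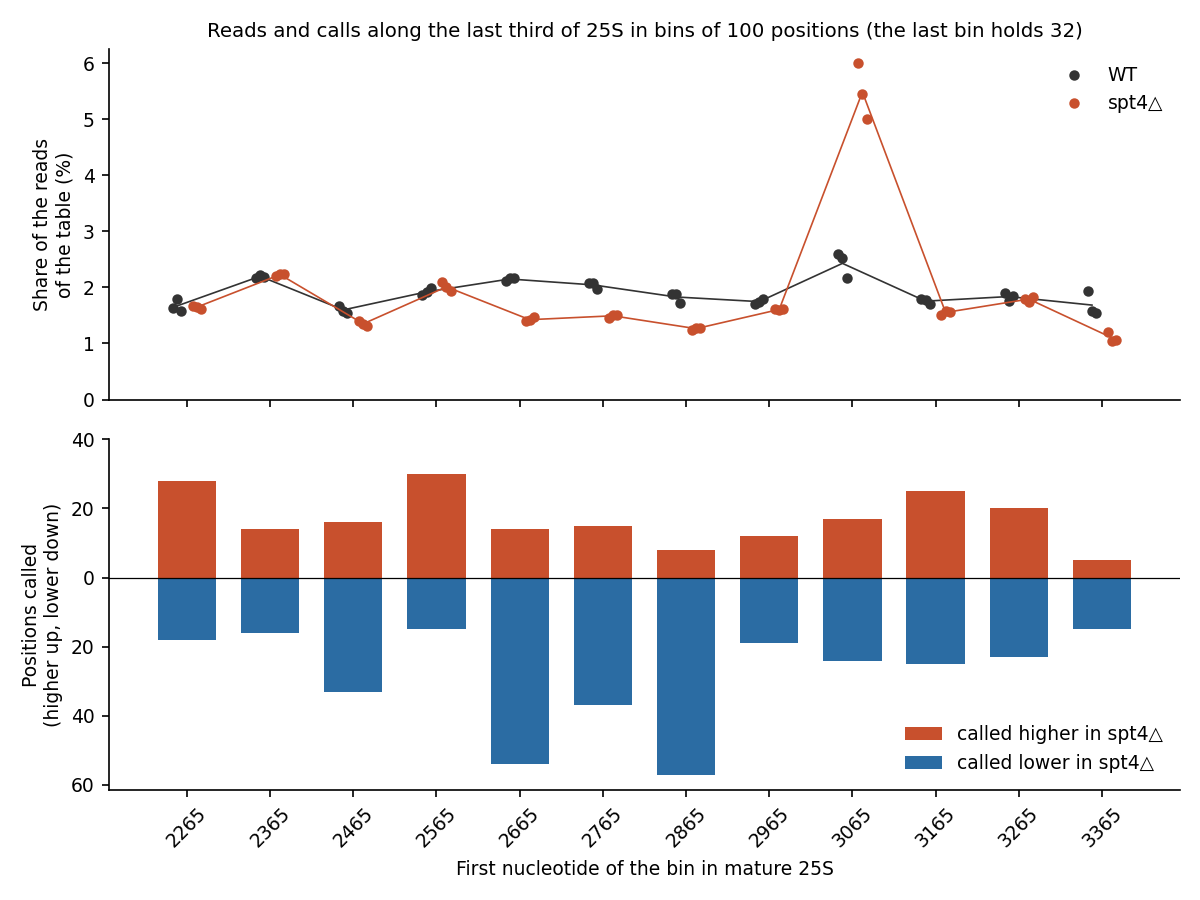
Upper panel, share of the reads of the table (percent) in each bin of 100 positions along the region (the last bin holds 32), with a point per library and lines through the means. Lower panel, number of positions per bin called higher (up) or lower (down) in *spt4△* by limma. The 3 bins from nucleotide 2665 have 54, 37 and 57 positions called lower, and the bin with position 6399 rises from 2.43% to 5.48%.

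Called positions came in runs. There were 23 runs of at least 5 neighbouring positions called lower, the longest of 15 positions, and 9 runs called higher, the longest of 9. Runs were counted in this region only, so whether they are more frequent here than in the rest of the gene is not known. Both runs of 15, at 5935 to 5949 and 6175 to 6189, lay in the low stretch, with median log2 changes of -1.11 and -0.83. One run of 9 higher positions was at 5955 to 5963, in the same stretch, with a median of 1.00, and the other, at 6393 to 6401, surrounded position 6399 and ended at a position, 6401, whose call was lost in 9 of 16 other settings.

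Position 6399 was at 6648, 6049 and 4795 rpm in WT and at 43139.5, 38141.7 and 33858.5 rpm in *spt4△*. These rest on 33538 to 66627 reads per WT library and 10403 to 20799 per *spt4△* library. It was the highest position of the region in each library, at 37.96 to 49.03 times the median of the 201 positions around it in WT and 273.8 to 358.6 times in *spt4△*. The rise was 6.58-fold, a log2 change of 2.73 ± 0.56 (SE, limma adjusted p = 0.00224). The authors removed duplicate reads by an identifier with 65536 possible sequences, a number that the WT reads here approach more closely than the *spt4△* reads. The effect of that removal on the rise at 6399 was not tested.

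The positions just before it rose as well. Position 6397 was at 317.4, 325.9 and 253.6 rpm in WT and at 823.4, 804.4 and 816.9 rpm in *spt4△*, a log2 change of 1.45 ± 0.12 (limma adjusted p = 6.8e-06). Position 6398 went from 304.0 ± 16.2 to 780.8 ± 26.3 rpm, a log2 change of 1.36. From 6393 on, the log2 changes up to 6399 were 0.48, 0.68, 0.78, 0.88, 1.45 and 1.36, and after it they were 0.65 and 0.35 at 6400 and 6401. The lost calls at 6401 came with limma adjusted p up to 0.182, reached with libraries scaled to their median position. Position 6383, 16 nucleotides upstream, also rose, from 387.1 ± 126 to 815.0 ± 91.8 rpm (log2 change 1.13, limma adjusted p = 0.00149). Its neighbour 6382 rose from 63.6 ± 5.49 to 140.3 ± 7.70 rpm (log2 change 1.13, limma adjusted p = 0.000138). Position 6391, 8 nucleotides upstream, fell by 0.75 on the log2 scale.

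**Figure D4:**
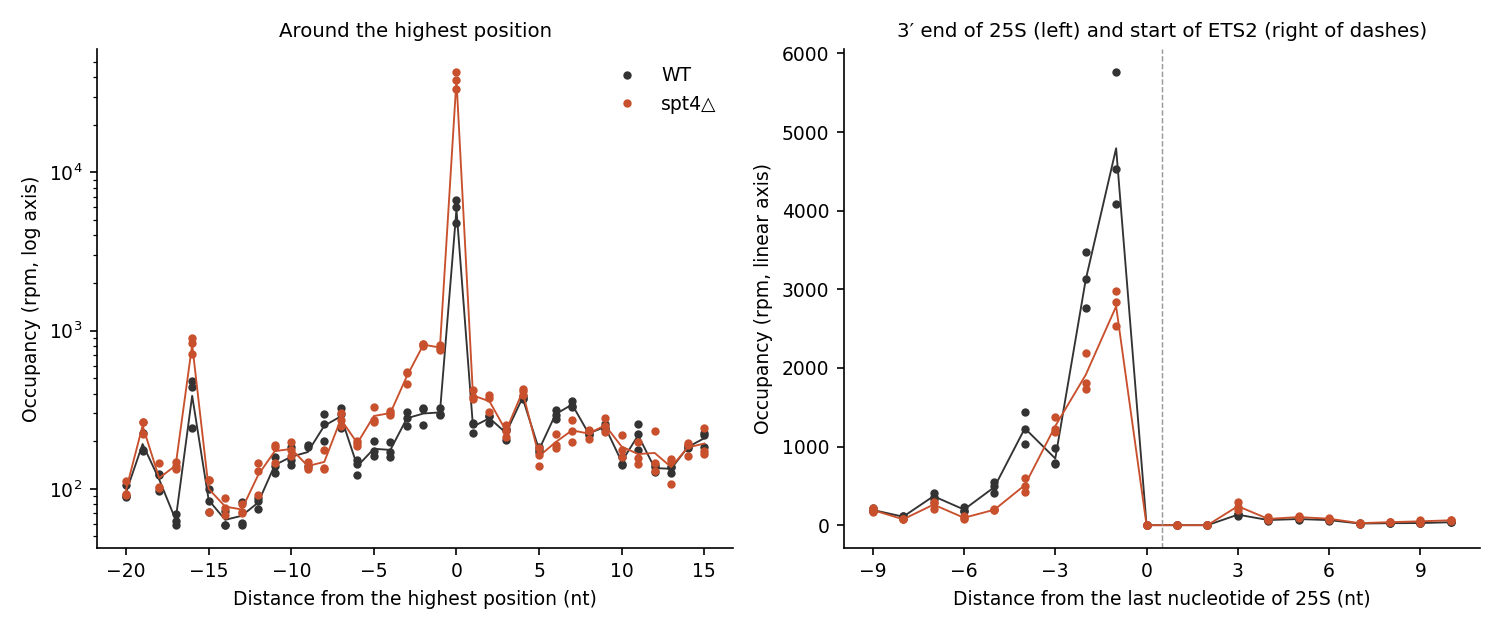
Occupancy in rpm of the 3 WT (dark) and 3 *spt4△* (orange) libraries, as points with lines through the means, around position 6399 (left, log axis, distance in nucleotides) and across the 3′ end of 25S into ETS2 (right, linear axis). Left, all *spt4△* libraries lie above all WT libraries from 6 nucleotides before the highest position up to it, and also at 17, 16 and 12 nucleotides before it. Right, the WT mean at the position before the last is 4794 rpm and the *spt4△* mean 2784 rpm, and 3 positions are at 0.

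The sequence after position 6399 shares letters with the ligation linker. The linker joined to the RNA 3′ ends begins with CA, goes on with 8 variable bases and continues with 17 fixed letters, so the first fixed letters stand 11 bases after a ligated end. Searched in the sequence of the transcript, position 6399 was the only one of the 6858 at which the 6 bases from +11 on were CTCCAC, the first 6 of those letters. At 4 positions 5 letters matched, and the 1 in the region, 5922, fell from 748.2 ± 37.3 to 357.7 ± 42.6 rpm (log2 change -1.07 ± 0.12, limma adjusted p = 4.5e-05). The other 3 were 1276 and 2392 in 18S, at -0.26 and -0.02, and 5094 in the middle part of 25S, which rose from 404.4 ± 77.7 to 7771 ± 729 rpm.

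The 2 matches in the region are shown as DNA letters, from 9 bases before the last incorporated nucleotide to 22 after it, with the letters shared with the linker in capitals. Position 6399 is at base 461171 and 5922 at base 461648 of chromosome XII. Position 6475 was the only one of the region followed by CA, 8 bases and CT, and it fell from 183.8 ± 22.2 to 117.2 ± 17.1 rpm. Outside the region, position 377 in ETS1 was followed by CA, 8 bases and 4 of the fixed letters, and it rose from 49.2 ± 5.02 to 380.2 ± 22.1 rpm (log2 change 2.93, limma adjusted p = 9.7e-08). Of the positions named here, 6399, 5094 and 377 rose, 5922 and 6475 fell, and 1276 and 2392 were not called (limma adjusted p = 0.295 and 0.944). Of the 5 positions of the gene with 4 letters matched, 377 among them, 2 were called higher and 2 lower. The part of the shared letters in the height of 6399 was not tested.
6399: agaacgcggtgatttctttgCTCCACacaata
5922: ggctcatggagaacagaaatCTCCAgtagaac

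The other named increases were at lower positions. Position 5655 was at 408.0, 436.3 and 393.8 rpm in WT and at 877.4, 692.8 and 862.5 rpm in *spt4△* (log2 change 0.97 ± 0.12, limma adjusted p = 0.000111). It moved from rank 99 to rank 5 in the region and ends in A after a purine-rich stretch. Position 5780 rose from 98.97 ± 10.1 to 241.2 ± 41.8 rpm and position 6473 from 87.8 ± 6.47 to 204.1 ± 15.9 rpm, log2 changes of 1.27 and 1.21. With 6399, 6397 and 6398 these were the 5 largest increases among 306 called positions without overlap and above the median occupancy of the region, a choice made from the same values.

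By the same rule the 5 largest decreases were at 6168, 5941, 5942, 6123 and 6111, all in the low stretch. Position 5941 was at 1036, 1087 and 1092 rpm in WT and at 360.9, 314.5 and 312.5 rpm in *spt4△* (log2 change -1.70 ± 0.11, limma adjusted p = 1.6e-06), and it dropped from rank 9 to rank 110. Position 6168 was at 337.1, 293.8 and 292.0 rpm in WT and at 83.0, 82.0 and 104.2 rpm in *spt4△* (log2 change -1.77 ± 0.14). The others went from 862.6 ± 57.9 to 286.1 ± 120 rpm at 5942, from 417.8 ± 33.7 to 131.3 ± 22.5 rpm at 6123 and from 476.2 ± 39.0 to 156.2 ± 19.2 rpm at 6111. These levels rest on as few as 32 to 46 reads in a *spt4△* library at 6168, 6123 and 6111.

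Pause positions were more numerous in WT. A pause was taken as a position at least 5 times as high as the median of the 201 positions around it in the same library. The WT libraries had 34, 28 and 26 pauses in the region and the *spt4△* libraries 18, 13 and 16. The counts did not overlap (29.3 ± 4.16 and 15.7 ± 2.52, exact permutation p = 0.1). Thinning the WT libraries to the depth of the *spt4△* libraries left medians of 34.5, 30.0 and 27.5 over 10 draws. Thinning takes reads at random, so it covers only the number of reads and no other difference between deep and shallow libraries. Without 6399 and the last 10 positions, pauses held 10.3% ± 1.82 of the reads of the region in WT and 4.23% ± 1.14 in *spt4△*.

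In all 3 WT libraries 24 positions were pauses and in all 3 *spt4△* libraries 12, with 8 in common, which is 33.3% of the WT list and 66.7% of the *spt4△* list. Of the 24 WT pauses, 13 were pauses in no *spt4△* library and 3 in 1 or 2. The 13 were 5941, 5942, 5944, 5946, 6027, 6029, 6030, 6298, 6299, 6319, 6328, 6622 and 6642. All were called lower, which their choice by height in WT and not in *spt4△* favours. The 4 pauses of *spt4△* found in no WT library were 6383, 6397, 6398 and 6579, and 3 of them lay within 16 nucleotides upstream of 6399. The 8 shared pauses were 6052, 6068, 6399, 6628 and, at the mature 3′ end, 6643 to 6646. Whether the reads at 6643 to 6646 came from nascent RNA or from mature rRNA was not tested. The shares of 33.3% and 66.7% count these positions and also 6399, where the part of the linker letters was not tested.

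Position 6318 was the strongest WT pause outside 6399 and the 3′ end. Its level was 2559, 2107 and 1873 rpm in WT and 840.0, 665.4 and 699.8 rpm in *spt4△*, a log2 change of -1.56 ± 0.16 (limma adjusted p = 2.6e-05). The next position, 6319, went from 1316 ± 190 to 457.6 ± 27.9 rpm, and both follow a stretch whose last 10 bases are 70% G or C. By contrast 6052 was a pause of nearly equal height in both strains, at 852.8 ± 20.9 rpm in WT and 744.5 ± 41.6 rpm in *spt4△* (log2 change -0.20, limma adjusted p = 0.177), although it lies in the low stretch.

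**Figure D5:**
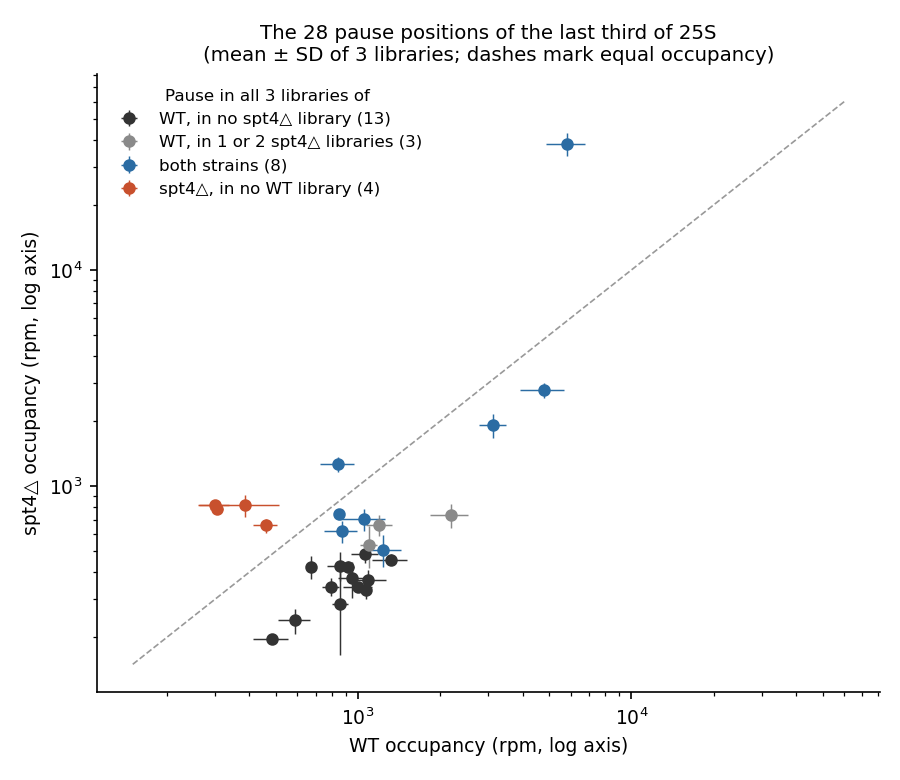
Mean occupancy in *spt4△* against WT (rpm, log axes, bars ± SD of 3 libraries) at the 28 positions that were pauses in all 3 libraries of a strain, coloured by the strain lists they belong to. The 13 pauses of WT found in no *spt4△* library lie below the dashed line of equal occupancy and the 4 of *spt4△* found in no WT library above it. Position 6399 is the point at 5830 and 38379.9 rpm.

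Outside 6399 and the last 10 positions, the highest positions held a smaller share of reads in *spt4△*. The 28 highest positions of each library, without 6399 and the last 10, held 12.72%, 11.93% and 11.51% of the reads of the region in WT and 9.61%, 8.86% and 9.02% in *spt4△*. The *spt4△* shares were all lower than the WT shares, at 9.16% ± 0.399 against 12.05% ± 0.612 (exact permutation p = 0.1). With all positions counted the direction turned, and the share at the 28 highest positions was 9.17 percentage points higher in *spt4△*. The ratio of the 90th to the 10th percentile of occupancy was 6.88 to 7.97 in WT and 5.88 to 7.23 in *spt4△*, and overlapped.

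The share of reads by last incorporated base differed between strains. Without 6399 and the last 10 positions, A ended 32.76%, 33.33% and 32.93% of the reads in WT and 29.90%, 30.68% and 30.98% in *spt4△*. G ended 21.21% ± 0.790 and 23.42% ± 0.265, and U 25.02% ± 0.194 and 25.92% ± 0.335. None of these 3 overlapped between strains (exact permutation p = 0.1 each, 0.133 adjusted over 4 bases), while C did, at 20.77% ± 0.670 and 20.13% ± 0.480. With all positions counted, G turned to a difference of -1.78 percentage points and U to 11.1, while A was at -6.20, the last base of 6399 being U. A makes up 25.88% of the bases of the region and G 26.33%, so outside those positions A was over-represented and G under-represented as the last base in both strains.

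The last 10 bases of the transcript before and including the 3′ end, where the RNA pairs with the template, were richer in G and C at the high positions of *spt4△*. At the 28 highest positions, these bases were 51.07%, 51.79% and 52.50% G or C in WT and 55.00%, 58.21% and 57.86% in *spt4△*. The values did not overlap (exact permutation p = 0.1, 0.3 adjusted over 3 windows), and both were above the 46.58% over all positions of the region, but the difference was -0.30 percentage points at the 11 highest positions. Further upstream (bases 11 to 30 from the 3′ end, 45.24% ± 0.984 and 44.82% ± 1.17) and over the 10 bases downstream (40.60% ± 1.15 and 42.98% ± 2.18) the strains overlapped.

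Summed occupancy was compared over the 2 conserved segments. The 37 positions around the peptidyl transferase motif, whose catalytic-site adenosine is nucleotide 2820 of 25S, summed to 6709, 7670 and 7454 rpm for WT and 7139, 7329 and 7502 rpm for *spt4△*. The strains overlapped (exact permutation p = 0.9), although this segment lies within the stretch that was lower in *spt4△*. The 37 positions around the sarcin-ricin motif summed to 4567, 4661 and 4847 rpm in WT and 3887, 4093 and 4146 rpm in *spt4△*, all lower than WT, a log2 ratio of -0.22 (exact permutation p = 0.1), with 6 positions called higher and 6 lower. The separation rested on its last position, 6298, a WT pause, and without it, a check chosen after seeing the data, the sums were 3770 ± 169 and 3618 ± 157 rpm and overlapped (exact permutation p = 0.4). At its adenosine 3027, the target of ricin in eukaryotic rRNA, the log2 change was -0.64 (limma adjusted p = 0.0210), and the call was lost when WT replicate 2, WT replicate 3 or *spt4△* replicate 1 was left out (limma adjusted p = 0.0744, 0.109 and 0.0615).

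At the 3′ end, the rpm values climbed to the position before the last and then stopped. Whether these reads came from nascent RNA or from mature rRNA was not tested. Position 6646 was at 5765, 4529 and 4087 rpm in WT and 2978, 2837 and 2535 rpm in *spt4△* (log2 change -0.77 ± 0.24, limma adjusted p = 0.0196), a call that was lost when WT replicate 1, *spt4△* replicate 2 or *spt4△* replicate 3 was left out (limma adjusted p = 0.0803, 0.0541 and 0.0840). Position 6645 went from 3121 ± 361 to 1912 ± 243 rpm and 6643 from 1232 ± 200 to 509.3 ± 87.9 rpm, log2 changes of -0.71 and -1.27. Between them position 6644 rose, from 847.9 ± 119 to 1260 ± 101 rpm (log2 change 0.58, limma adjusted p = 0.00621), so the order of 6643 and 6644 was exchanged between strains.

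The last position of 25S, 6647, and the first 2 of ETS2, all U, were listed at 0 in every library, which is why 1131 and not 1132 positions were tested. Position 6650 had 133.6 ± 13.1 rpm (WT) and 241.5 ± 47.0 rpm (*spt4△*). The windows behind the pause calls at the 3′ end take in ETS2, where occupancy was lower, and 5 of the 24 WT pauses and 4 of the 12 *spt4△* pauses were among the last 10 positions. The first position of the region, 5516, was at 65.3 ± 3.63 rpm in WT and 68.2 ± 7.03 rpm in *spt4△* and was not called.

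A part of the region is present a further time in the genome. For 590 of the 1132 positions, the 30 bases ending there also occur on the minus strand at chrXII:489754-490542, outside the annotated rRNA genes, and 497 of them form a block at 5988 to 6484 that holds 6399. The low stretch lies in this block from 5988 on, with positions 6111, 6123 and 6168. All 1132 also match the second full copy of the gene, and counts from the 2 full copies were added. Without 6399 and the last 10 positions, the positions with a further match held 11.10% ± 0.312 of reads in WT and 9.37% ± 0.025 in *spt4△*, and those without 10.41% ± 0.115 and 9.89% ± 0.158. Both were lower in all *spt4△* libraries (exact permutation p = 0.1 each), with 89 positions higher and 190 lower of 579, and 113 higher and 139 lower of 542. The decrease was larger at positions with a further match, with log2 ratios of -0.24 and -0.07. Position by position, the median log2 change was -0.129 at those with a further match and -0.003 at those without. Within libraries, the log2 ratio of the first share to the second was 0.09 ± 0.030 in WT and -0.08 ± 0.020 in *spt4△*. These values did not overlap (exact permutation p = 0.1). How reads with several matches were placed is not given in the sources used here.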

How the data were processed

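NET-seq libraries of 3 WT and 3 *spt4△* cultures were analysed over 6858 positions. The submitters' notes name bcl2fastq 2.20.00, cutadapt 1.12, STAR 2.7.1a, SAMtools 1.6, bedtools 2.26.0, R 3.6.2 and genome R64. The authors removed duplicate reads by molecular identifier (8 bases, 65536 possible), aligned the reads and counted their ends per position. The deposited values are in rpm, which the authors made by dividing counts by the total of their library up to T1, so that each library sums to 1000000 there. The deposited p-values and ratios of the authors were not used.

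Reads were recovered from the smallest step of each library (99.97% of 41148 values were whole within 0.02, and 3 of the others fell in the region). On these reads edgeR 4.0.16 called 217 positions of the region higher and 346 lower. Main calls used limma 3.58.1 (trend) in R 4.3.3 on log2(rpm + 1) over 6848 positions, with strain as the only term and an adjusted p under 0.05. For values per library, exact permutation tests (two-sided) were used. Tests were run on simulated data first.

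Named positions were the 5 highest per strain, the 5 largest called changes each way without overlap and above the median occupancy, the ends, matches to the linker and positions at 0. Members and lists were chosen with earlier results of these data known. Alternatives changed the pseudocount, filter, scaling, tool, depth, pause definition and libraries.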

Additional observations from a re-analysis of the deposited data

How the results depend on the processing

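The region had 204 positions called higher and 336 lower in *spt4△*. These counts stayed within 1.5 times of that under the other settings named in the methods, and ranged over 140 to 211 and 256 to 353 when a library was left out, with the lowest counts without WT replicate 1. With the replicate number as a block (replicate block), 208 were higher and 351 lower. Same-numbered libraries had correlations of their deviations of 0.01, 0.02 and -0.05, so the numbers were not treated as pairs. Counted only over positions with no further match in the genome, an alternative added after seeing the data, 113 were higher and 139 lower, by construction over fewer positions.

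The log2 ratio of the share of reads in the region was 0.01 and became -0.17 without position 6399, -0.16 without it and the last 10 positions, -0.047 for the median position and -0.12 with libraries scaled to their median position. Without 6399 and the last 10 positions it was -0.16, and became 0.0060 over all positions, -0.040 for the median position and, added after seeing the data, -0.073 over positions with no further match. Leaving out 10 positions on each side of 6399 as well, also added after seeing the data, changed it by less than the spread between replicates. The difference in the log2 ratio to the rest of 25S was -0.06, and became 0.15 over all positions and -0.10 for medians. The difference between the 3′ and 5′ sides was -0.09, and became 0.30 over all positions and -0.17 for medians.

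The difference in pauses per library was -13.7, and became -38.3 at 3 times and -4.67 at 10 times the local median. At the 28 highest positions the difference in the share of reads was -2.89 percentage points, and became -1.71 for the 11 highest, -3.53 for the 56 highest and 9.17 over all positions. Over all positions the differences by last base became -6.20 for A, 11.1 for U, -1.78 for G (2.21 without 6399 and the last 10) and -3.09 percentage points for C. The turns over all positions come with the reads at position 6399, whose last base is U. The differences in GC content for the 11 highest positions became 2.12 percentage points at bases 11 to 30 upstream and -0.30 in both the last 10 bases and the 10 downstream, and 3.33 for the 56 highest in the last 10 bases.

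Of 149 alternatives over 15 results, 123 moved the value by less than the spread between replicates, or the count by less than 1.5 times. Leaving out 1 of 3 libraries cannot move a mean by as much as the SD of its strain. For values per library, those alternatives were therefore bound to count as unmoved. The tally thus does not show how stable those values are. Of 75 single positions checked, 42 of 51 calls held under all alternatives run and none changed sign. Depth limits the low positions of *spt4△*, where the lowest position with reads rested on 3 to 5 reads per library.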
